A study of Mus musculus with 6 samples.

Results

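The heat shock and endoplasmic reticulum (ER) stress genes described here are a list of 37 mouse genes that encode molecular chaperones, their partners and the transcription factors of both stress responses. Members were the genes with at least 1 non-control array probe designed to one of their RefSeq transcripts. This gave 36 of the 37 listed genes, measured by 51 of 55681 probes, against 20280 named genes on the whole array. Hspa1b had no such probe. Its transcript is close to that of Hspa1a, and whether the Hspa1a probe also reads Hspa1b was not examined. The study measured total RNA of whole kidney from male C57BL/6 mice, an inbred laboratory strain. The aged group was 20 months old and the young group 2 months old, with 3 samples per age and no other treatment or genotype named. An Agilent array with a single dye was used for every sample. RNA was prepared separately for each replicate, but the labels leave unsaid whether a replicate is another mouse, so part of the spread behind the p-values may be technical.

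Chaperones bind unfolded proteins and keep them from clumping while they fold. In the cytosol the HSP70 and HSP90 families do this with HSP40 partners that deliver the client and HSP110 factors that exchange the nucleotide, and small heat shock proteins hold unfolded clients without using ATP. Heat, toxic metals and other protein-damaging stress activate the transcription factor HSF1, which binds heat shock elements in the promoters of these genes. In the ER, unfolded protein activates the sensors encoded by Atf6, Ern1 and Eif2ak3, and through XBP1, ATF4 and cleaved ATF6 raises ER chaperones such as the one encoded by Hspa5. In the kidney, cells of the inner medulla live in high salt and urea and are known for high levels of several of these chaperones.

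All 34 tested members were well above background on all 6 arrays, and the other 2, Hspa1l and Hspb7, were too dim to be tested. A value below is a normalised log2 signal, the log2 processed signal minus the 75th percentile of its own array, and a change is aged minus young on the same scale with its standard error (SE). Levels of different genes cannot be set against each other, since each probe has its own brightness. A summed signal of several genes, given below, is for the same reason weighted to its brightest probes and is compared only between arrays. The share of probes flagged as well above background was 46.3% to 62.8% on aged arrays and 55.3% to 72.9% on young arrays, and precision is limited by having 3 arrays per age. The 6 arrays shared 1 slide, on which aged samples filled row 2 and young samples row 1, so row and age cannot be told apart. Kidney markers were present: all 7 proximal tubule, 4 thick limb and distal tubule and 6 podocyte and endothelial genes examined were well above background on every array.

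The comparison asked how expression differs between aged and young kidney. Among the heat shock and ER stress genes, 1 small heat shock gene was higher in aged kidney, Hspb8, and 1 was lower, Cryaa. The other 32 tested members did not pass the adjusted p threshold of 0.05. Across all 14541 tested genes 2.06% were called higher and 1.44% lower, 3.5% in either direction, so 1 of 34 in each direction is close to the background. The split over all genes rests in part on aged replicate 1, without which 360 genes were called higher and 571 lower, against 299 and 210 with all arrays. At an unadjusted p under 0.05 there were 7 of 34 members, against 17.1% of all genes. Among the members' 47 tested probes 1 was called higher and 1 lower, against 1.5% and 0.649% of all 30821 tested probes (2.15% in either direction). This probe count of 2 was 0 without aged replicate 2, and 1, lower in aged kidney, without aged replicate 3 or any 1 of the young arrays. The median log2 change was -0.11 over the 34 members and -0.01 over all tested genes. The members' median was 0.01 without young replicate 2, so its sign rests on that array. For 21 of the 34 members the 95% interval of the change lay within 1.5-fold in both directions, as it did for 67.4% of all genes. For 30 of the 34 it lay within 2-fold, as it did for 89.7% of all genes.

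**Figure D1:**
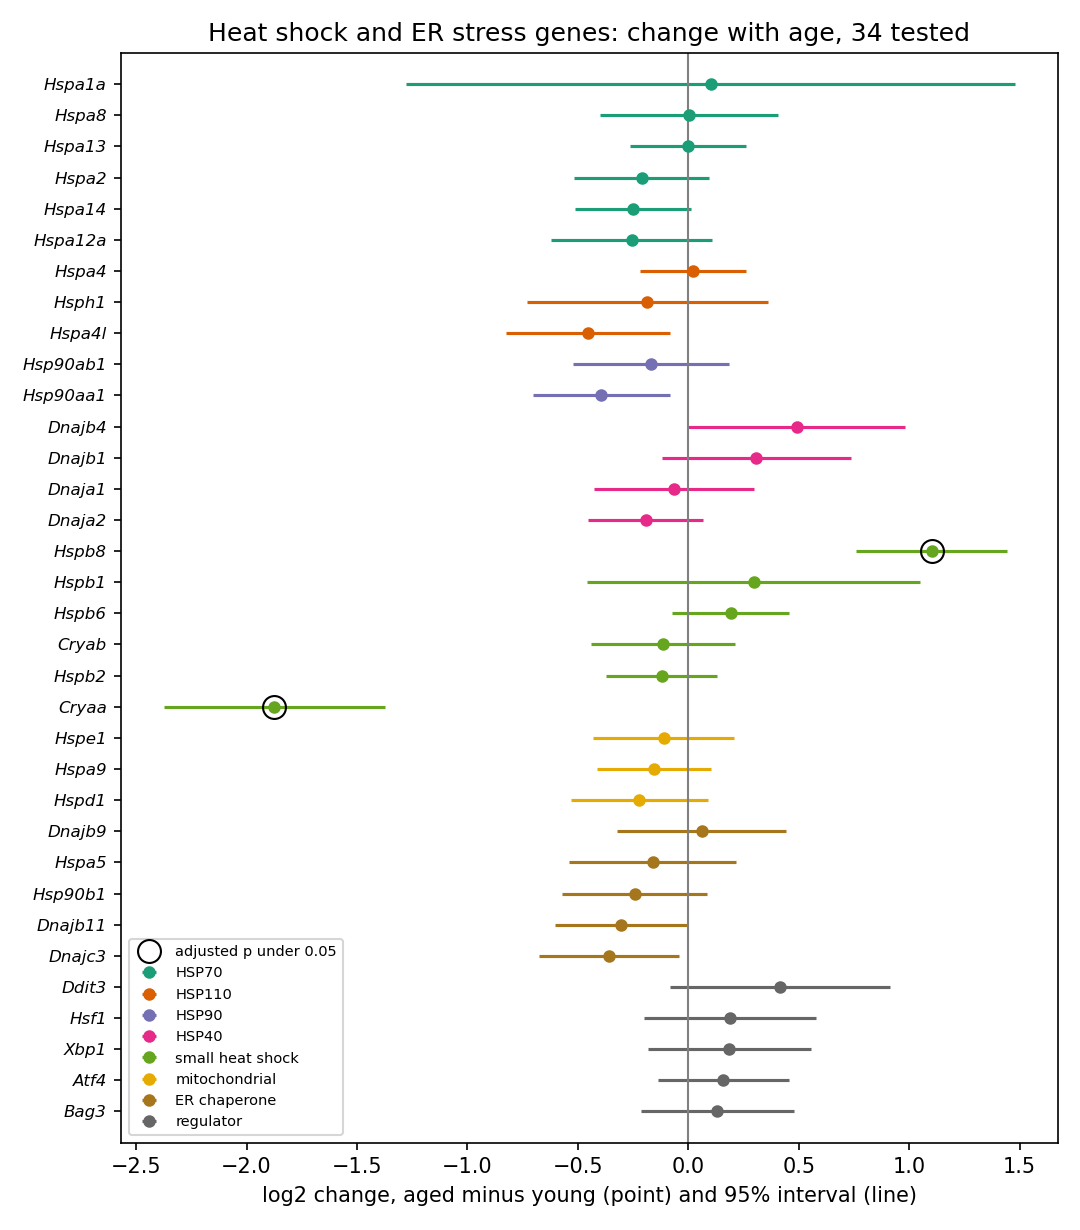
Log2 change of each tested member, aged minus young (horizontal axis), with its 95% interval, grouped and coloured by role. Hspb8 at 1.10 and Cryaa at -1.87 are circled as the members past the threshold, and the interval of Hspa1a, from -1.28 to 1.48, is the widest.

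Small heat shock proteins were the group with both called members. Hspb8 encodes a small heat shock protein that works with BAG3 to pass damaged proteins to autophagy, and it was higher on every aged array. Its normalised log2 signal was -1.26, -0.78 and -0.83 in aged kidney (replicates 1 to 3) and -2.12, -1.96 and -2.10 in young kidney. The lowest aged value lay well above the highest young value, and the young arrays lay close together. The rise was 1.10 ± 0.15 (SE, n = 3 arrays per age), or 2.15-fold, with an adjusted p of 0.0108, and it was 1.02 to 1.25 when any 1 array was left out, with an adjusted p of up to 0.0466. Cryaa encodes alpha A crystallin, a small heat shock protein best known as a main protein of the eye lens. Its signal was -2.01, -2.51 and -2.93 in aged kidney and -0.53, -0.74 and -0.56 in young kidney. The ages did not overlap, and the aged arrays were more spread than the young ones. Cryaa fell by 1.87 ± 0.22 on the log2 scale (a ratio of 0.273, adjusted p = 0.00583), and by 1.65 to 2.11 when any 1 array was left out, with an adjusted p of up to 0.0366. Both calls were lost with no filter on dim probes, where the adjusted p was 0.109 for Hspb8 and 0.0972 for Cryaa. A second Cryaa probe was well above background on 0 of the 6 arrays and was not tested.

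The RefSeq promoters of both called genes are shown, 250 bases before to 50 bases after the transcription start in build GRCm38.p6, because these are the members that differed with age. Capitals mark a match to a heat shock element of 2 units, GAANNTTC, which reads the same on both strands.
Hspb8 promoter, chr5:116422815-116423114, minus strand: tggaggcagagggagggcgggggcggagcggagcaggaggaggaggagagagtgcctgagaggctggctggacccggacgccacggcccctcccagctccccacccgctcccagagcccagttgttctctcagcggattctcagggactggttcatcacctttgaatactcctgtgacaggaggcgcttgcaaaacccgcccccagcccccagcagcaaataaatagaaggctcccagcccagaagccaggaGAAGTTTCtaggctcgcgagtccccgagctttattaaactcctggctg
Cryaa promoter, chr17:31677681-31677980, plus strand: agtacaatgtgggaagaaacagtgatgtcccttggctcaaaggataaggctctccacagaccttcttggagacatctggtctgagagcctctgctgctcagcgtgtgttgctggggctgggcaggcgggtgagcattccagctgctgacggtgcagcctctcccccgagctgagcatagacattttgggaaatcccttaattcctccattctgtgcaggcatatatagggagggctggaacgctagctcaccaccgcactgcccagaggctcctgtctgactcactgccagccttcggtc
The Hspb8 window held 1 such match, starting 2 bases after the start, and the Cryaa window held no match to any motif searched.

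The other small heat shock genes differed less between the ages. Hspb6, whose product is abundant in muscle, was at 1.44, 1.45 and 1.65 in aged kidney and 1.24, 1.30 and 1.42 in young kidney. The aged values were all higher, by a narrow margin, and the change of 0.19 ± 0.11 did not pass (adjusted p = 0.451). Hspb1, an actin-stabilising small heat shock protein, spread widely within each age, with 1.57, 2.20 and 2.66 in aged kidney and 1.82, 2.39 and 1.33 in young kidney, and its change was 0.30 ± 0.33 (adjusted p = 0.708). Cryab, the alpha B crystallin of many tissues, had a change of -0.11 ± 0.14 (95% interval -0.44 to 0.21) and its second probe one of 0.02. Hspb2, the next protein-coding gene to Cryab in the RefSeq annotation, had a change of -0.12 ± 0.11. Hspb7, a cardiac and muscle family member, was well above background on 1 aged and 2 young arrays, with -5.00, -5.09 and -5.18 in aged kidney against -4.48, -4.77 and -4.87 in young kidney, and was not tested. Bag3, the partner of Hspb8, had a change of 0.13 ± 0.15 (95% interval -0.22 to 0.48).

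**Figure D2:**
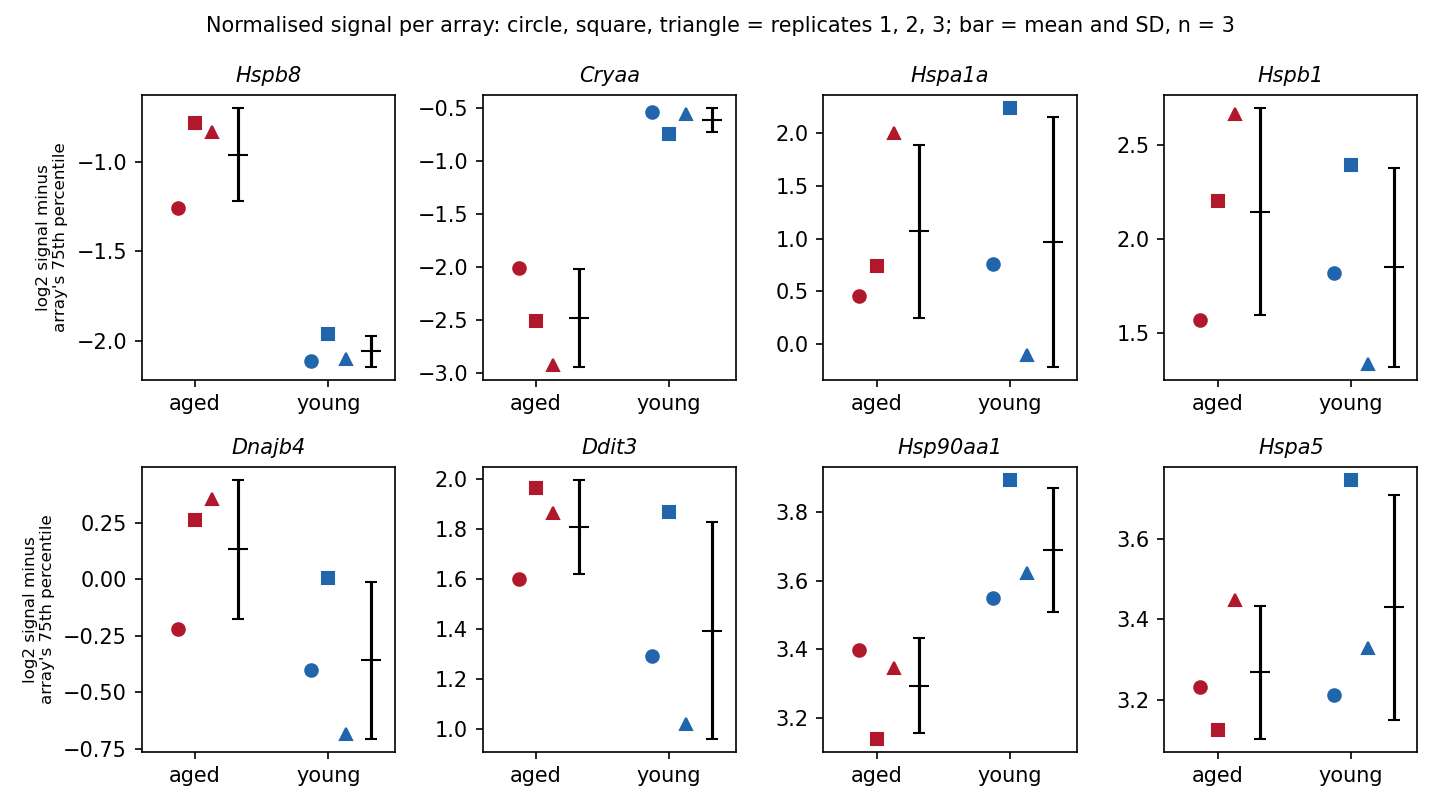
Normalised log2 signal of 8 members on each array, aged left and young right in every panel, with replicates 1, 2 and 3 as circle, square and triangle and the mean ± SD (n = 3) as a bar. Hspb8 and Cryaa separate by age, while Hspa1a and Hspb1 spread more within an age than between the ages.

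None of the HSP70 genes passed the threshold. Hspa1a, the chaperone most strongly induced by heat, had signals of 0.46, 0.74 and 2.01 in aged kidney and 0.76, 2.24 and -0.10 in young kidney. The ages overlapped fully, with the highest and the lowest value both among the young arrays. Its change was 0.10 ± 0.60 and its 95% interval, -1.28 to 1.48, leaves room for a difference of more than 2-fold either way. Its direction turned when arrays were left out, with changes between -0.43 and 0.74. Hspa8, the constitutive cytosolic HSP70, averaged 4.74 ± 0.34 in aged and 4.74 ± 0.11 in young kidney (SD, n = 3 each), with a change of 0.003 ± 0.175 on its brightest probe and -0.03 and 0.006 on its others. Hspa14, a ribosome-associated HSP70, was lower on every aged array, at 0.38, 0.25 and 0.16 against 0.54, 0.40 and 0.59 in young kidney, with a change of -0.25 ± 0.11 (adjusted p = 0.319). Hspa2, Hspa12a and Hspa13 had changes of -0.21, -0.26 and -0.002, with adjusted p-values of 0.475, 0.466 and 0.996. Hspa1l, a testis HSP70, was well above background on 0 of 3 aged and 2 of 3 young arrays, at -5.91, -6.26 and -5.96 in aged kidney and -5.06, -5.07 and -5.86 in young kidney, too dim for a fold.

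The HSP110 genes encode nucleotide exchange factors of HSP70. Hspa4l, also known as osmotic stress protein 94 for its induction by salt in kidney cells, was at 0.56, 0.58 and 0.86 in aged kidney and 1.02, 1.42 and 0.93 in young kidney. Every aged value lay below every young value, and the change of -0.45 ± 0.16 had an unadjusted p of 0.0223 and an adjusted p of 0.2. Of 10 tested genes of collecting duct and inner medulla 1 was lower, 0 were higher and 9 did not pass. The summed signal of the 11 with a named probe, as percent of the 75th percentile, was 4240 to 5057 in aged and 5099 to 5696 in young kidney, and 0 of the 11 lacked signal on all arrays. The part of these genes in the Hspa4l result was not tested, and in bulk RNA fewer cells of a type and less RNA per cell cannot be told apart. Hsph1 had a change of -0.19 ± 0.24 and Hspa4 one of 0.02 ± 0.10, with a 95% interval of -0.22 to 0.26.

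Of the cytosolic HSP90 genes, Hsp90aa1, the stress-inducible form, was lower on every aged array. It was at 3.40, 3.14 and 3.35 in aged kidney and 3.55, 3.89 and 3.62 in young kidney, a change of -0.39 ± 0.13 (unadjusted p = 0.0189, adjusted p = 0.183). Hsp90ab1, the constitutive form, had a change of -0.17 ± 0.15 and overlapping ages. Of the HSP40 co-chaperones, Dnajb4 was at -0.22, 0.26 and 0.35 in aged and -0.40, 0.01 and -0.69 in young kidney. Aged replicate 1 lay below the highest young array, and the change of 0.49 ± 0.21 did not pass (adjusted p = 0.293). Dnajb1, the main heat-inducible partner of HSP70, had a change of 0.31 ± 0.18 (adjusted p = 0.456). Dnaja2 was at 2.15, 2.29 and 2.14 in aged kidney and 2.30, 2.52 and 2.34 in young kidney, without overlap, with a change of -0.19 ± 0.11 (adjusted p = 0.445). Its second probe had a change of 0.02. Dnaja1 had a change of -0.07 ± 0.16, and its dimmer probe one of -0.49 with an adjusted p of 0.365 over all probes.

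The mitochondrial chaperones Hspd1 and Hspe1, which form the HSP60 folding chamber and its lid, and Hspa9, the mitochondrial HSP70, all had small negative changes and none passed. Hspd1 was at 3.60, 3.25 and 3.64 in aged kidney and 3.69, 3.80 and 3.67 in young kidney, with a change of -0.22 ± 0.13. The ages were separated by a narrow gap, with aged replicate 2 the lowest array. Hspa9 was at 3.70, 3.48 and 3.70 in aged kidney and 3.72, 3.84 and 3.78 in young kidney, with a change of -0.15 ± 0.11. Hspe1, the neighbour of Hspd1 in the RefSeq annotation, had overlapping ages and a change of -0.11 ± 0.14, with -0.10 and -0.21 on its other probes. Of 10 tested mitochondrial chaperone and protease genes that are not members, 0 passed with limma and 1 had an unadjusted p under 0.05. This was Clpp, the subunit of a matrix protease, at 3.60, 3.78 and 3.89 in aged and 3.33, 3.46 and 3.57 in young kidney, with a change of 0.30 ± 0.12 (adjusted p = 0.267). Htra2 and Clpx, also of mitochondrial proteolysis, had changes of 0.17 and -0.26, and Dnajc15 and Yme1l1 of -0.13 and -0.10.

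The ER chaperones had changes below 0 in 4 of 5 members, with none past the threshold. Dnajc3, a co-chaperone of the ER lumen also known as p58IPK, was at 1.23, 1.09 and 1.08 in aged kidney and 1.51, 1.71 and 1.26 in young kidney. The ages did not overlap, and the change of -0.36 ± 0.14 had an unadjusted p of 0.0314 and an adjusted p of 0.234. Dnajb11, an ER HSP40, was at 3.11, 2.87 and 3.07 in aged and 3.27, 3.51 and 3.18 in young kidney, with a change of -0.30 ± 0.13 (adjusted p = 0.288). Hspa5, encoding BiP, the ER HSP70 whose rise marks ER stress, was at 3.23, 3.12 and 3.45 in aged and 3.21, 3.75 and 3.33 in young kidney. Its ages overlapped, with a change of -0.16 ± 0.16 and a 95% interval of -0.54 to 0.22. Hsp90b1, the ER HSP90, and Dnajb9 had changes of -0.24 ± 0.14 and 0.06 ± 0.17.

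The promoter of Hspa5 is shown because it carries the ER stress element, searched on both strands as its CCAAT and CCACG boxes with 9 free bases between them, in capitals.
Hspa5 promoter, chr2:34771840-34772139, plus strand: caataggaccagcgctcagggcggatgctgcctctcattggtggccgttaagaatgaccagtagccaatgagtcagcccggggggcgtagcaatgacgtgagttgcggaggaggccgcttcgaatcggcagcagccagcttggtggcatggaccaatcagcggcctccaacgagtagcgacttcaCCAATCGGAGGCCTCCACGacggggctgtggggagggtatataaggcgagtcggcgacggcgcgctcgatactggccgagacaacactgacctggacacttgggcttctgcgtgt
There were 37 promoters to search, of 29 of the listed genes, with Hspa1b, which had no probe, included. Matching letters were found in 3 of the 37, those of Hspa5, Hsp90b1 and Dnajc3, and in 0.119% of all 32851 promoters. In Dnajc3 the match read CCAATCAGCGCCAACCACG, starting 105 bases before the start, and in Hspa5 it started 65 bases before it. Their changes of -0.16, -0.24 and -0.36 all lay below 0 and none passed.

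Among 31 tested genes of ER folding and quality control that are not members, 0 passed with limma, 1 had an unadjusted p under 0.05 and the median change was -0.05. That gene was Ero1a, the oxidase that makes disulphide bonds in the ER, at -1.92, -1.81 and -2.03 in aged and -1.69, -1.50 and -1.62 in young kidney, with a change of -0.32 ± 0.11 (adjusted p = 0.203). Sel1l, Os9, Selenos and Derl2, all of ER-associated degradation, had changes of -0.29, 0.17, -0.14 and -0.13. Genes of B cells and plasma cells, which carry a large ER, were higher in aged kidney in 5 of 8 tested. Their summed signal over 11 genes was 1116 to 1220 percent of the 75th percentile in aged and 246.3 to 268.6 in young kidney, and 0 of them lacked signal on all arrays. The part of these cells in the ER gene values was not tested.

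The 5 regulators all had changes above 0, and none passed. Ddit3, encoding the pro-death factor CHOP, was at 1.60, 1.96 and 1.86 in aged kidney and 1.29, 1.87 and 1.02 in young kidney. Young replicate 2 lay among the aged values, and the change was 0.41 ± 0.22 (95% interval -0.08 to 0.91, adjusted p = 0.38). Xbp1 had a change of 0.19 ± 0.16 (adjusted p = 0.617), with 3.04, 3.53 and 3.56 in aged and 3.21, 3.08 and 3.28 in young kidney. A whole-transcript probe does not separate the spliced, active form of Xbp1 from the unspliced one. Atf4 had a change of 0.16 ± 0.13 and its second probe one of -0.04, and Hsf1 a change of 0.19 ± 0.17. The proteins of Xbp1, Atf4 and Hsf1 are controlled largely after transcription, which the arrays do not measure.

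Of 22 tested sensors and transcription factors of the unfolded protein response that are not members, 1 was higher, 0 were lower and the median change was -0.03. Creb3l3, a membrane-bound transcription factor of the liver and intestine released by cleavage like ATF6, was at -3.95, -3.84 and -3.24 in aged kidney and -5.30, -4.94 and -4.79 in young kidney. Every aged value lay above every young value, and it rose by 1.33 ± 0.21 (adjusted p = 0.0178). The call was lost without aged replicate 2 (0.0619), without young replicate 1 (0.0562), with quantile normalisation (0.0617), normexp background correction (0.159) and no filter on dim probes (0.143). The sensors did not pass: Atf6 had a change of 0.24 ± 0.13, Ern1 of 0.11 ± 0.13 and Eif2ak3 of -0.04 ± 0.14. Trib3, a target of ATF4 and CHOP, had a change of 0.41 ± 0.17 (adjusted p = 0.267), Atf3 of 0.21 ± 0.29, Creb3l1 of -0.21 ± 0.11 and Ddit4 of -0.22 ± 0.13.

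Of 38 tested cytosolic chaperones, co-chaperones and HSF factors that are not members, 0 passed with limma and 3 had an unadjusted p under 0.05, with a median change of -0.06. The nearest was Bag2, an inhibitor of the ubiquitin ligase CHIP, at 0.16, 0.24 and 0.16 in aged kidney and 0.74, 0.79 and 0.46 in young kidney. The ages did not overlap, and the change was -0.48 ± 0.12 (adjusted p = 0.0886). With a trended robust variance the adjusted p of Bag2 was 0.0485. Bag4, another BAG-domain gene, had a change of -0.34, and Ahsa2 and Cct5 of -0.39 and -0.22. Hsf2 had a change of -0.21 ± 0.13.

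Small shifts in 1 direction were counted as members whose ages did not overlap. Of the 34 tested members 9 were lower on every aged array than on any young array and 2 were higher, against 11.5% and 10.1% of all tested genes (21.6% in either direction). The 9 were Cryaa, Hspa4l, Hsp90aa1, Dnajc3, Dnajb11, Hspa14, Hspd1, Dnaja2 and Hspa9, or 26.5% of the members. The 2 were Hspb8 and Hspb6. Without young replicate 2, the array on which many members were highest, 10 members were lower and 6 higher, against 15.5% and 13.1% of all genes. Without aged replicate 1 the members' counts were again 10 lower and 6 higher, against 20.5% and 21.8% of all genes. Leaving out any other array kept 2 members higher. The lower members then numbered 10 without aged replicate 2 (13.6% of all genes higher, 15.3% lower) and 12 without aged replicate 3 (12.8% higher, 19.6% lower). They numbered 10 without young replicate 1 (12.2% of all genes higher, 15.4% lower) and 11 without young replicate 3 (16.3% higher, 17.8% lower). Apart from Cryaa, the lower members had changes of -0.15 to -0.45 and none passed.

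Much of the variation of these genes lay between arrays of the same age. Young replicate 2 was the highest of the young arrays for 24 of the 34 members (70.6%), against 32.5% of all 14500 genes with a value on every array. Aged replicate 3 was the highest aged array for 21 members (61.8%), against 44.8% of all genes. The departure of young replicate 2 from the young mean had a median of 0.13 over the members and -0.002 over all genes. On that array 28 of 34 members lay above the young mean, against 49.4% of all genes. On aged replicate 3 the median departure was 0.14 over the members and 0.05 over all genes. There 26 of 34 members lay above the aged mean, against 60.9% of all genes. The pattern was noticed in these data and is given as a description. By role, young replicate 2 was high in the HSP110, HSP40 and ER chaperone genes, with median departures of 0.30, 0.28 and 0.22, and not in the small heat shock genes (-0.001) or the regulators (0.01).

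**Figure D3:**
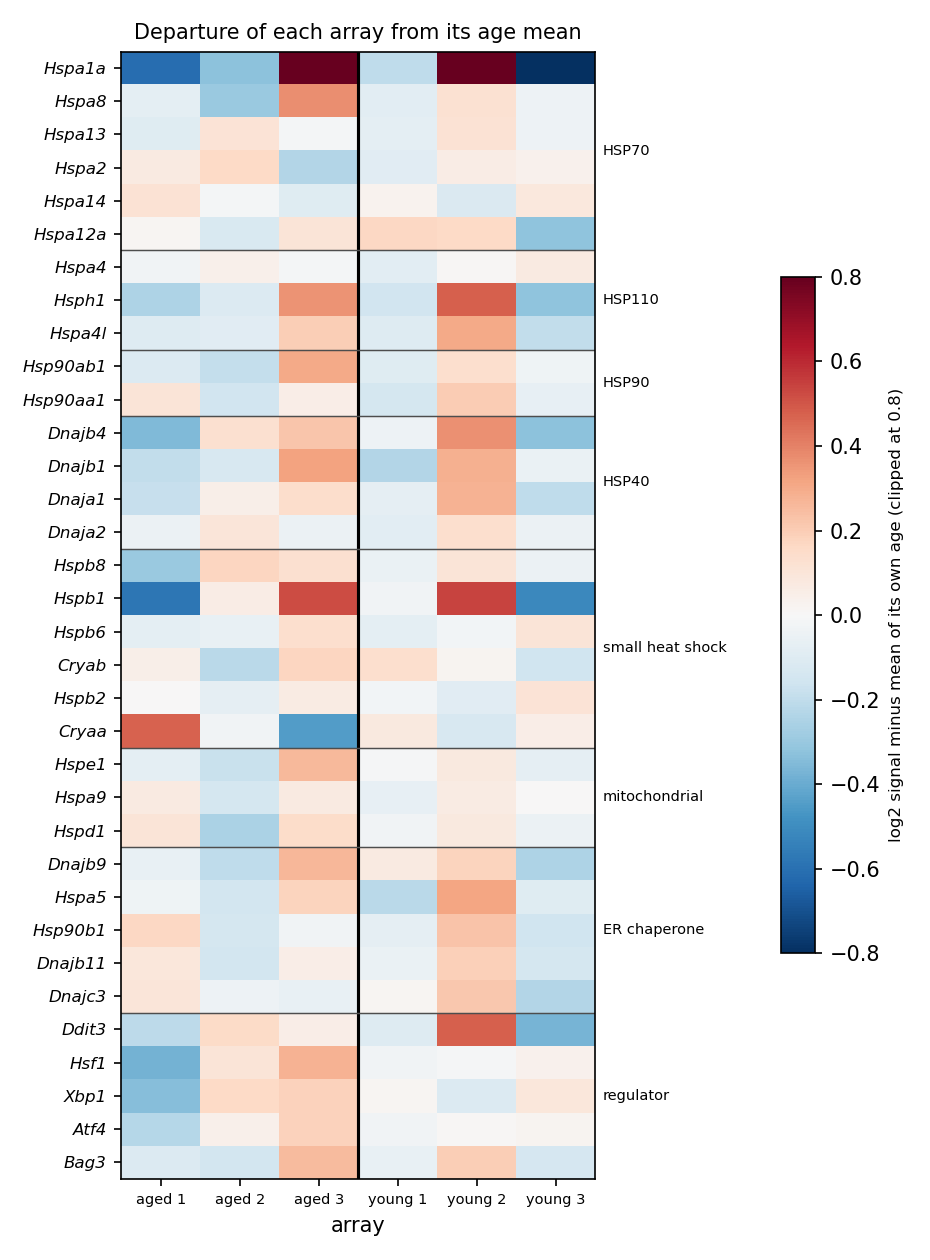
Normalised log2 signal of each member on each array minus the mean of that array's own age, aged arrays left and young arrays right, rows grouped by role. Young replicate 2 and aged replicate 3 are above their age means for 28 and 26 of the 34 members, against 49.4% and 60.9% of all genes.

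The widest spread was that of Hspa1a, whose SD between arrays of one age, pooled over both ages, was 1.02 on the log2 scale. This exceeded the SD of 99.7% of all genes. Hspb1 followed with 0.54 (above 96.8% of genes), then Hsph1 with 0.37 (above 91.6%). Cryaa, Ddit3, Dnajb4 and Dnajb1 had SDs of 0.34, 0.33, 0.33 and 0.27. At the other end Hspa4 had an SD of 0.06, smaller than that of all but 3.39% of genes, and Hspb2 and Hspa9 had 0.09 and 0.10. The arrays ran in the same order as for Hspa1a in both ages, with young replicate 2 above 1 above 3 and aged replicate 3 above 2 above 1, for 6 of the 34 members, itself included, against 4.33% of all genes. The others were Hspb1, Hsph1, Dnajb4, Hspa4l and Dnaja1. In that order of arrays the 75th percentiles of processed signal were 2419, 3780 and 4091 in aged and 3663, 3953 and 2600 in young kidney. The part of array brightness in this order was not tested.

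**Figure D4:**
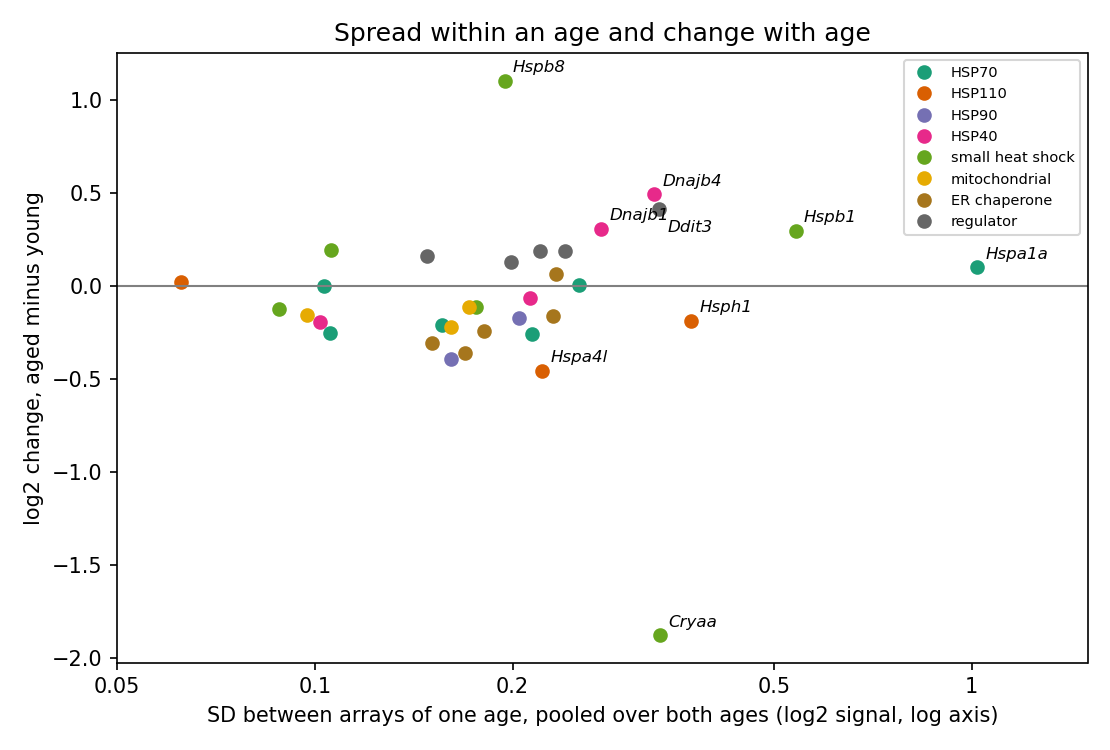
SD between arrays of one age (horizontal, log axis) against the log2 change, aged minus young (vertical), for the 34 tested members coloured by role. Hspb8 and Cryaa stand apart on the vertical axis and Hspa1a, at an SD of 1.02 and a change of 0.10, on the horizontal one.

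The promoters of the members with the widest spread are shown for the same heat shock letters, again in capitals.
Hspa1a promoter, chr17:34972107-34972406, minus strand: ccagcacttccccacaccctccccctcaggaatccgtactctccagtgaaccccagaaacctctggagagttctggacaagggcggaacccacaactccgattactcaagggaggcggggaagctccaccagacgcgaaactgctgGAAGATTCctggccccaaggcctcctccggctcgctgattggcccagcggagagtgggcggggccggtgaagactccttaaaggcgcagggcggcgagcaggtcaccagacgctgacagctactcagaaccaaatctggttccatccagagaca
Hspb1 promoter, chr5:135887669-135887968, plus strand: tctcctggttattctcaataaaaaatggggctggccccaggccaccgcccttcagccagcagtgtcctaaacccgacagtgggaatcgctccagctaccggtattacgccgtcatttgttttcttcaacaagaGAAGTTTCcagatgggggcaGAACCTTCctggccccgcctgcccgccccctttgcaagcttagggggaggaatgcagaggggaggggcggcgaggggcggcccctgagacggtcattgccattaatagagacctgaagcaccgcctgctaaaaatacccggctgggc
The letters of 2 units were found in 11 of 37 member promoters, those of Bag3, Dnaja1, Hspa1a, Hspa1b, Hspb1, Hspb6, Hspb8, Hspd1, Hspe1 and Hsph1, and in 7.86% of all promoters. A heat shock element of 3 units is the same letters with another inverted unit next to them. It was found in 4 of 37 member promoters, those of Hspd1, Hspe1 and Hsph1, and in 0.603% of all promoters. The matches of the neighbours Hspd1 and Hspe1 are the same letters read on opposite strands. In Hsph1 the same letters were matched at 36 and at 15 bases after the start. Promoters and not separate sites were counted, so the member counts for 2 and 3 units can include a site more than once. The letters TGACGTGG of an unfolded protein response element, on either strand, were found in 0 of 37 member promoters and 0.676% of all promoters. These are matches of letters, and no match says only that these letters are not in the window.

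Markers of other cells and of sample handling were read beside these values. Smooth muscle, which is rich in small heat shock proteins, had 0 of 7 tested markers past the threshold and summed signals of 2291 to 2676 percent of the 75th percentile in aged and 2209 to 2740 in young kidney. Adipocyte markers summed to 3267 to 3513 in aged and 1754 to 3254 in young kidney with 1 of 6 higher. T cell and macrophage markers summed to 1293 to 1515 in aged and 1048 to 1280 in young kidney with 4 of 8 higher. All 8 had changes above 0, with a median of 0.72. Over all 14541 tested genes 6895 had changes above 0, with a median of -0.01. Every gene of these 3 lists had signal well above background on at least 1 array. Young replicate 3 set the upper end of the young adipocyte range, close to the lowest aged array. The part of these cells in the rise of Hspb8 was not tested. Beside Cryaa, 11 other lens genes summed to 58.7 to 69.2 in aged and 66.5 to 84.0 in young kidney, with Cryba1 well above background on no array. The 6 urothelial genes summed to 40.1 to 51.1 in aged and 69.8 to 496.4 in young kidney, the highest on young replicate 1. Of these 4 were tested and 1 was lower. All 4 had changes below 0, but only 2 of the 6 were well above background on all 6 arrays, so the filter can tilt that count. The part of either list in the fall of Cryaa was not tested. Immediate early genes, which respond fast to handling, passed in 0 of 7 tested with limma, 3 of them with an unadjusted p under 0.05, and summed to 399.8 to 494.1 in aged and 446.4 to 519.5 in young kidney. Young replicate 2, on which many members were highest, had the middle value of that sum among the young arrays at 451.9. The part of handling in the values of the members was not tested.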

How the data were processed

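Per the labels' protocols, Trizol RNA was turned into cDNA, and Klenow enzyme added Cy3 from random primers, so either strand can carry the dye. Per the file headers, arrays of design 028005 were scanned at 3 micron and quantified with Feature Extraction 11.5.1.1, and the deposited processed signal is a linear intensity from which background and spatial trends were removed one array at a time, without bringing arrays to a common scale. The authors' deposited value table is on the log2 scale and lies below the log2 processed signal by a median per array close to its 75th percentile, with single probes departing from that median by up to 0.53 to 0.66 on 5 arrays and 1.56 on young replicate 3. Its medians were -3.98, -4.19 and -4.24 on the aged and -3.98, -4.07 and -4.24 on the young arrays.

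Control spots and outlier-flagged spots were left out, spots of a probe averaged as log2 and each array's 75th percentile subtracted. Probes were named by RefSeq transcript from the GRCm38.p6 annotation, which differs from the array's mm9 build: 26756 of 55681 had 1 symbol, 28925 none and 0 several. A gene was represented by its brightest probe on average, and tested where every array of either age measured that probe well above background. Ages were compared with limma 3.58.1 in R 4.3.3 (lmFit and eBayes, 2-sided). P-values were adjusted by Benjamini-Hochberg over the 14541 genes or the 30821 probes. Members and lists were chosen with earlier results of these data known. Every member was accounted for, and of each list of non-members the 5 with the smallest p were named, plus sensors and factors fixed with the list; 1 gene is not reported here. In simulated data of 14500 genes the test recovered 8.96% of changes of 0.5, 77.6% of 1 and 97.0% of 2 on the log2 scale, with 4 false calls among 126. There 67, 67 and 66 genes were changed, with noise independent between genes, against 509 calls in the real data. The adjusted p depends on how many genes change, so these rates need not hold for the real fit. The alternatives tried were the authors' values, median centring or quantile normalisation, normexp (offset 50, median spot signals, as no mean is given), both other filters, kept outliers, averaged probes, other variance models, a replicate block and leaving out each array.

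Same-numbered aged and young samples had correlations of 0.06, -0.09 and 0.10 between their departures from the age means, so the numbers were not taken to pair the samples. They do share a slide column, since the replicate number was also the column in both ages. From replicate 1 to 3 the 75th percentile of processed signal fell, from 4091 to 2419 in aged and from 3953 to 2600 in young kidney.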

Additional observations from a re-analysis of the deposited data

How the results depend on the processing

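The calls of Hspb8 and Cryaa, and no other member, were made under every alternative and every left-out array except with no filter on dim probes. Without that filter 0 of 36 members and 0 of 51 member probes passed with limma. There 6 of 36 members had an unadjusted p under 0.05, against 2247 of all 20280 genes, and so did 3 of 51 member probes. With the replicate number as a block, which the check of pairing did not bear out, both passed (adjusted p = 0.0238 and 0.0198), so the member count stayed at 2. With single probes adjusted over all probes, the count of member probes was 0 to 2 when 1 array was left out, 0 of them without aged replicate 2 (2 with an unadjusted p under 0.05). Over all genes the count of 509 (299 higher, 210 lower) was 800 with median centring, 303 with normexp (213 higher, 90 lower), 16 with no filter, 302 with the replicate block and 160 to 931 without 1 array. The highest count, without aged replicate 1, turned the split round (360 higher, 571 lower). For the other folding and stress genes the count of 1, Creb3l3, was 0 with quantile normalisation, normexp and no filter (5, 4 and 4 with an unadjusted p under 0.05), 2 with a trended robust variance and 0 to 1 without 1 array. Directions turned for values that did not pass: Hspa1a had a change of -0.39 with array weights and -0.43 to 0.74 without 1 array, and Yme1l1 one of -0.17 to 0.011 without 1 array. The causes were not tested. Only 3 arrays per age limit all of these values, and the simulation recovered few changes of 0.5.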

Other observations

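Crystallins other than Cryaa were measured beside it, in a list of lens genes of which 7 were tested. Crygs, a gamma crystallin, was at -3.11, -3.01 and -2.95 in aged and -3.54, -3.66 and -3.44 in young kidney, a change of 0.52 ± 0.11 (SE, n = 3 arrays per age, limma, adjusted p = 0.0485), close to the threshold and not recomputed under the alternatives. Crybb1, a beta crystallin, was at -5.42, -5.96 and -6.16 in aged and -4.84, -4.55 and -4.58 in young kidney. It was well above background on 1 of 3 aged and 3 of 3 young arrays and entered the test only through the young arrays, so no size of change is given. The other 5 tested genes of the list did not pass. Of the 7 tested, Crygs was the 1 with a change above 0 and 6 had changes below 0. This count includes Crybb1 and other genes that were not well above background on all 6 arrays. The filter can therefore tilt it, and no direction is drawn from it. Over all 14541 tested genes 7646 had changes below 0. Only 3 of the 11 listed lens genes were well above background on all 6 arrays.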
